A study of Mus musculus with 10 samples.

Results

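The 10 genes described here are the transcriptional end of the Hippo pathway and its best known feedback targets in mouse: *Yap1*, *Wwtr1*, *Tead1*, *Tead2*, *Tead3*, *Tead4*, *Lats1*, *Lats2*, *Amotl2* and *Ankrd1*. They were taken by symbol from the table of normalized counts, in which all 10 were found among 62322 rows, 25233 of them with a gene symbol. Transcripts of most of these genes were scarcer in hypertrophied hepatic stellate cells (hypHSCs) than in quiescent ones (qHSCs). *Yap1* was 8.24-fold lower, *Amotl2* 21.6-fold lower and *Tead1*, *Tead2* and *Tead3* 6.72- to 11.2-fold lower. *Tead4* was 13.8-fold lower, but it passed the filter on low values only through qHSCs and had to differ. The target gene *Ankrd1* was 31.6-fold higher, and *Wwtr1*, which encodes TAZ, did not pass the test. These folds are limma estimates on the log2(normalized count + 1) scale.

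Hepatic stellate cells are the vitamin A storing pericytes of the liver sinusoid, which can turn into matrix-producing myofibroblasts in liver injury. The Hippo pathway is a kinase cascade in which MST kinases (*Stk3*, *Stk4*) activate LATS kinases, and LATS phosphorylates YAP and TAZ, which keeps them out of the nucleus. Unphosphorylated YAP and TAZ enter the nucleus, bind TEAD transcription factors at DNA that reads GGAATG or its reverse complement CATTCC, and switch on genes such as *Ccn1*, *Ccn2* and *Ankrd1*, as well as *Lats2* and *Amotl2*, whose products in turn restrain YAP. The pathway is regulated largely through phosphorylation and location of these proteins, neither of which RNA sequencing measures.

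RNA was sequenced from 5 preparations of hypHSCs and 5 of qHSCs, each 1 library from male C57BL/6J mice. The hypHSCs came from mice on the CDAHFD, a choline-deficient, methionine-poor, high-fat diet that induces steatohepatitis, for 13 weeks at 19 weeks of age (hypHSC 1 and 2) or for 12 weeks at 18 weeks of age (hypHSC 3, 4 and 5). For the qHSCs, mice were kept on standard diet and used at 36 weeks (qHSC 1, 2 and 5) or 34 weeks of age (qHSC 3 and 4). Cells were freed by perfusion of the liver with enzymes, enriched on a density gradient and sorted, hypHSCs from a gate of green fluorescence and qHSCs by their blue vitamin A fluorescence. Diet, age, digestion and gate changed together between the groups, so their effects cannot be told apart. The hypHSC preparations were chosen by RNA quality from more samples than mice and the text does not tie libraries to animals, so n counts preparations and p-values measure the spread between preparations.

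The hypHSC libraries held 30534719 to 43283589 reads on named genes and the qHSC libraries 35640104 to 47317028, and 3 reads, the floor used here, equal 2.25 to 4.54 normalized counts. Defining markers went against the label in the hypHSC libraries: all 13 genes of a quiescent stellate cell list (*Lrat*, *Reln*, *Des* and others) were lower, with a summed level of 6877 to 21557 normalized counts against 799879 to 1458080.0, and all 12 genes of a core macrophage list (*Ptprc*, *Cd68*, *Csf1r* and others) were higher, at 1178290.0 to 1496350.0 against 4785 to 96090.3. All 7 lipid-associated macrophage genes were higher, at 946658 to 1117230.0 against 5088 to 6700. Of 7 resident Kupffer cell genes 4 were higher, *Clec4f*, *Timd4* and *Marco* did not pass, none stood apart between the groups, and the sums overlapped, at 21502 to 46460.4 against 1331 to 50326. No gene of these 3 macrophage lists was at or under the floor in every qHSC library. The summed cholangiocyte list stood at 797 to 6999 against 4.72 to 56.1, with *Cldn4* at or under the floor in every qHSC library. *Krt19* and *Cldn4* of this list passed the filter only through hypHSCs, and *Hhip* of the stellate list only through qHSCs, so these had to differ. Of 6 tested vascular smooth muscle and pericyte genes 4 were lower. *Acta2*, at a mean of 847 in hypHSCs against 407 in qHSCs, and *Notch3* did not pass. The whole list, which shares *Rgs5* with the stellate list, summed to 1984 to 6954 against 106301 to 153835. None of 7 hepatocyte genes passed, and 2 sinusoidal endothelial genes were higher and 3 lower of 8 tested. Of 3 tested mesothelial genes 2 were higher, *Gpm6a* having passed the filter only through hypHSCs. Mitochondrial reads held 2.21% to 12.8% of the reads in hypHSCs and 1.25% to 1.61% in qHSCs, with hypHSC 1 highest, and hypHSC 5 had the fewest genes with reads. In bulk RNA, fewer cells of a type and less RNA per cell cannot be told apart, and the part of these marker differences in the results below was not tested.

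Sequences that read as the TEAD motif were looked for in the 250 bases before each RefSeq start, on both strands, to show which members and targets carry it. Such windows were given for 8 of the 10 members, not for *Tead1* and *Tead4*, and were credited to RefSeq (table build GRCm38.p6) and placed on GRCm39 by a unique exact match. Some genes have several windows and were counted once, as carrying the motif if any window did. By this count 5 of these 8 genes carried it (62.5%), *Yap1*, *Wwtr1*, *Tead3*, *Amotl2* and *Ankrd1*, and *Tead2*, *Lats1* and *Lats2* did not. Not every *Tead3* window held it. The motif was in 12.6% of all 32851 single windows. Counted by gene, it was in 14.4% of 27025 genes with a window and in 13.1% of the 11382 tested ones. Of these tested genes it was in 12.8% of those that rose, 15.3% of those that fell and 12.4% of the rest. Outside the 10 genes, it was in 4 of 12 YAP/TEAD targets with a window (33.3%), *Axl*, *Ccn1*, *Crim1* and *Ptpn14*. It was in 12 of 40 other Hippo pathway genes with a window (30%). Both of these lists are described below. A match is a description of letters only. The sites below are 30 bases on GRCm39, printed 5′ to 3′ on the strand where the motif, in capitals, reads GGAATG, with *Ccn1* as a target outside the 10 genes.
*Ankrd1*, chr19:36097437-36097466, 210 bases before the start: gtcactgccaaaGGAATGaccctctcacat
*Ankrd1*, chr19:36097350-36097379, 123 bases before: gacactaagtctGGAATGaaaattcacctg
*Amotl2*, chr9:102594926-102594955, 65 bases before: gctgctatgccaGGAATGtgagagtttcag
*Yap1*, chr9:8004721-8004750, 141 bases before: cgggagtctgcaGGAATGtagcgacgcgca
*Wwtr1*, chr3:57483450-57483479, 136 bases before: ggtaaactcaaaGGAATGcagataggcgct
*Tead3*, chr17:28569671-28569700, 114 bases before: agggggatggccGGAATGtacggaatgagc
*Tead3*, chr17:28569944-28569973, 182 bases before: gacgacgagcgaGGAATGgggtgcgcggga
*Ccn1*, chr3:145355826-145355855, 103 bases before: tcaaacatctcaGGAATGttggttggcgcg
The *Tead3* sites are counted from different RefSeq starts, with windows at 28569575 to 28569824 for the first and 28569780 to 28570029 for the second. The first overlaps another match, 123 bases before the same start. That site and the *Amotl2* site fall within the gene spans given below, which reach past the starts used here. *Ankrd1*, which rose, and *Amotl2*, *Yap1*, *Tead3* and *Ccn1*, which fell, all carry the same 6 letters.

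Each gene was compared with limma on log2(normalized count + 1), with Benjamini-Hochberg adjustment over 14630 genes tested. DESeq2 on reads recovered from the normalized counts gave smaller changes for most of the members, such as −2.26 beside −2.75 for *Tead3*. For *Tead4* it gave a larger one, −4.26 beside −3.78. A gene with an adjusted p no higher than 0.05 and a log2 fold change of 1 or more in size was called differentially expressed (DEG). By this rule 8 of the 10 genes were DEGs, 7 lower and 1 higher in hypHSCs, beside 39.5% of all genes tested, 21.7% lower and 17.8% higher. At any fold, 9 passed the adjusted p beside 48.0% of all genes, 8 of them lower beside 25.8%. The groups did not overlap for 5 genes beside 39.5% of all genes, 4 lower beside 22.0% and 1 higher beside 17.6%. The median log2 fold change was −2.90 over the 10 genes and −0.20 over all genes tested. All 10 genes were tested, but *Tead4* reached 10 normalized counts in 0 hypHSC and 5 qHSC libraries. It thus passed the filter only through qHSCs and had to differ, and the counts of members above include it. The fall of the 7 genes and the rise of *Ankrd1* held under the 4 other scalings of the libraries that were tried, relative to the median of all genes, which moved from −0.20 to between −1.12 and −0.09.

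**Figure D1:**
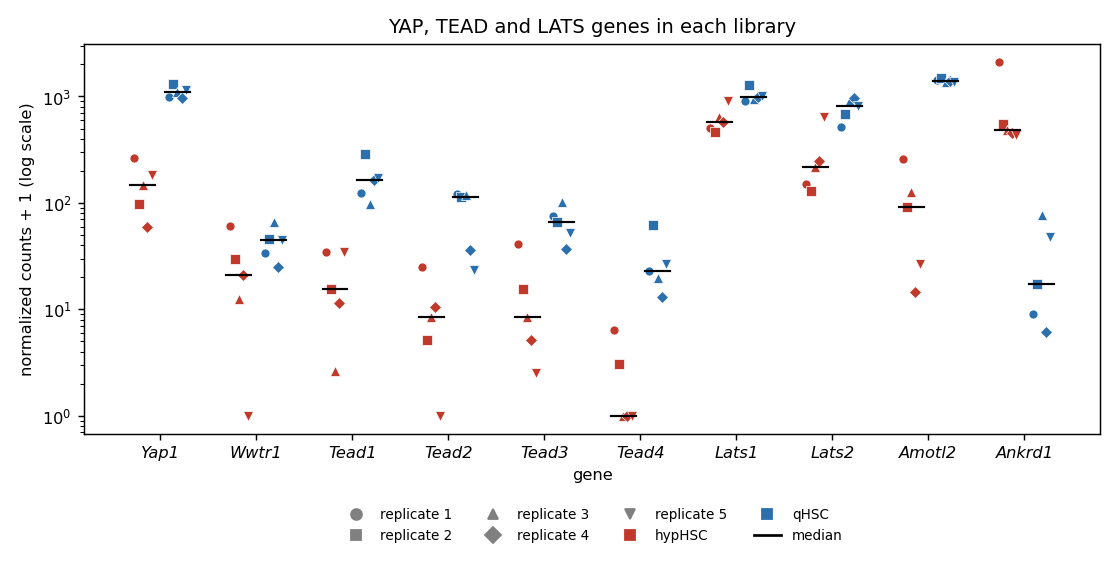
Normalized counts plus 1 on a log axis for each gene in each of 5 hypHSC and 5 qHSC libraries, with a black line at the group median and a marker shape for each replicate number. The groups stand apart for *Yap1*, *Tead1*, *Tead4*, *Amotl2* and *Ankrd1*, and overlap for the other 5 genes.

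*Yap1* (chromosome 9, 7932004 to 8004597) encodes YAP, the main transcriptional effector of the pathway. It had 265, 96.3, 147, 58.8 and 183 normalized counts in hypHSC 1 to 5 and 998, 1316, 1105, 967 and 1141 in qHSC 1 to 5. Every hypHSC library lay below every qHSC library, and hypHSC 4 was lowest. The means were 150.1 ± 80.1 and 1105 ± 138 (SD, n = 5), and the log2 fold change was −3.04 (SE 0.36, 95% interval −3.84 to −2.25, limma adjusted p = 4.99e-05, exact permutation p = 0.00794, the smallest that 5 libraries against 5 allow). Leaving out any 1 library gave −3.29 to −2.75, with *Yap1* a DEG each time. The level also varied more among hypHSC libraries, with a coefficient of variation of 53.3% against 12.5% in qHSCs, which was not tested.

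*Wwtr1* (chromosome 3, 57363065 to 57483333) encodes TAZ, the paralog of YAP. It had 59.3, 29.0, 11.6, 19.9 and 0 normalized counts in hypHSC 1 to 5 and 32.6, 45.2, 64.6, 24.0 and 43.5 in qHSC 1 to 5. The groups overlapped, and hypHSC 1 was higher than 4 of the 5 qHSC libraries while hypHSC 5 had none. The means were 24.0 ± 22.4 and 41.9 ± 15.3 (SD, n = 5), and the log2 difference of −1.58 (SE 0.96, limma adjusted p = 0.196, exact permutation p = 0.127) had a 95% interval from −3.68 to 0.52. *Wwtr1* was a DEG in 2 of 23 alternative fits. These used the 12-week hypHSC libraries alone (−2.67, limma adjusted p = 0.0476) and libraries scaled on *Hprt*, *Pgk1* and *Actb* (−2.52, limma adjusted p = 0.0218). The change was smaller with DESeq2 (−0.80, adjusted p = 0.413) and edgeR (−0.79, adjusted p = 0.475) on recovered reads. Without hypHSC 5 it was −0.63 (limma adjusted p = 0.341).

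Per length, *Yap1* stood at 0.385 ± 0.208 FPKM in hypHSCs and 3.60 ± 0.44 in qHSCs, and *Wwtr1* at 0.0494 ± 0.0459 and 0.109 ± 0.0433. Both effectors were thus below 1 FPKM in hypHSCs, and among 12976 genes ranked by FPKM *Yap1* was at place 9588 in hypHSCs and 4640 in qHSCs, and *Wwtr1* at 12439 and 12037. The log2 ratio of *Yap1* to *Wwtr1* within a library was 3.29 ± 2.50 in hypHSCs and 4.75 ± 0.44 in qHSCs (SD, n = 5), a difference of −1.47 that did not pass an exact permutation test (p = 0.222, adjusted over 3 ratios 0.333). Without hypHSC 5, where *Wwtr1* had no reads, it was −2.53 (exact permutation, adjusted p = 0.0119).

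The 4 TEAD genes encode the DNA-binding partners through which YAP and TAZ act. *Tead1* (chromosome 7, 112278525 to 112505991) had 33.7, 14.5, 1.66, 10.5 and 33.3 normalized counts in hypHSC 1 to 5 and 123, 289.7, 96.05, 164 and 169 in qHSC 1 to 5, with no overlap (log2 fold change −3.48, SE 0.69, limma adjusted p = 0.00168). *Tead2* (chromosome 7, 44865177 to 44883043) had 24.3, 4.14, 7.48, 9.44 and 0 against 120.4, 112, 117, 35.1 and 22.5, where qHSC 5 lay under hypHSC 1 (−3.37, SE 0.87, limma adjusted p = 0.00787). *Tead3* (chromosome 17, 28550645 to 28569779) had 40.4, 14.5, 7.48, 4.20 and 1.51 against 75.1, 64.8, 99.99, 35.9 and 50.95, where qHSC 4 lay under hypHSC 1 (−2.75, SE 0.72, limma adjusted p = 0.00883). *Tead4* (chromosome 6, 128201251 to 128277776) had 5.39, 2.07, 0, 0 and 0 against 21.7, 61.35, 18.9, 12.0 and 25.5 (−3.78, SE 0.75, limma adjusted p = 0.00161), and its hypHSC values are 4, 2, 0, 0 and 0 reads. The sizes of these folds depended on the pseudocount, the 1 added to each normalized count. With 0.5 in its place, the limma changes of *Tead1* to *Tead4* were −3.57, −3.62, −2.86 and −4.425. With 5 they were −3.04, −2.60, −2.20 and −2.24, and all 4 genes stayed DEGs in both fits. In all 4 genes hypHSC 1 had the highest value of its group. Exons of *Tead2* share 8.02% of their bases with antisense genes that include *Cd37*, a leukocyte gene with 290.4 to 1453 normalized counts in hypHSCs and 0 to 158 in qHSCs, and the libraries do not keep the strand.

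Summed per length, the TEAD genes reached 0.336, 0.106, 0.0724, 0.0698 and 0.0560 FPKM in hypHSC 1 to 5, and 1.42, 1.86, 1.51, 0.795 and 0.800 in qHSC 1 to 5. The reads behind these sums were 77, 34, 20, 23 and 23 in hypHSCs and 376, 619, 421, 289 and 358 in qHSCs, so the make-up of the family in hypHSCs rests on few reads. The share of *Tead1* in the sum per length, with 1 added to each normalized count, was 29.6% ± 27.8 in hypHSCs and 31.8% ± 13.8 in qHSCs (SD, n = 5, exact permutation p = 0.929), and its sign changed with the libraries used. The shares of the other TEAD genes were not tested.

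**Figure D2:**
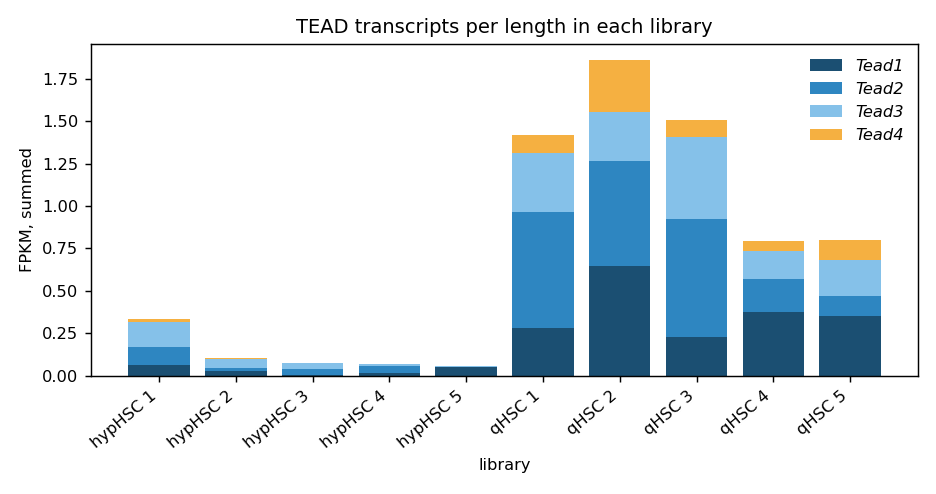
Stacked FPKM of *Tead1* to *Tead4* (vertical axis, from 0) in each library (horizontal axis). The qHSC sums lie between 0.795 and 1.86 FPKM and the hypHSC sums between 0.0560 and 0.336, so the tallest hypHSC bar is below the shortest qHSC bar.

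The genes of the LATS kinases, which phosphorylate YAP and TAZ, were both lower in hypHSCs, and only *Lats2* reached the fold of the DEG rule. *Lats1* (chromosome 10, 7556971 to 7592587) had 501, 467, 646, 579 and 899.9 normalized counts in hypHSC 1 to 5 and 898, 1282, 949, 983 and 1011 in qHSC 1 to 5, with hypHSC 5 alone reaching into the qHSC range. Its log2 difference of −0.76 (SE 0.21, 95% interval −1.22 to −0.29, limma adjusted p = 0.0117) passed the p but not the fold of the DEG rule. With libraries scaled to the same total it was −1.11 and scaled on *Hprt*, *Pgk1* and *Actb* it was −1.69, both DEGs, while relative to the median of all genes it stayed between −0.57 and −0.56 under those scalings. *Lats2* (chromosome 14, 57927120 to 57983580) had 148, 127, 219, 245 and 635 against 520.4, 691, 917, 975 and 805, and hypHSC 5 again stood above its group and inside the qHSC range (−1.73, SE 0.40, limma adjusted p = 0.00442). The log2 ratio of *Lats1* to *Lats2* was 1.38 ± 0.55 in hypHSCs and 0.41 ± 0.41 in qHSCs (SD, n = 5). The difference of 0.97 did not pass after adjustment (exact permutation p = 0.0238, adjusted over 3 ratios 0.0714). It was 0.69 with the 12-week hypHSC libraries alone (exact permutation, adjusted p = 0.268). Without hypHSC 5, which stood out by its own *Lats2* value, it was 1.19 (exact permutation, adjusted p = 0.0119). Exons of *Lats2* share 30.4% of their bases with other genes, so its reads are less certain.

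*Amotl2* and *Ankrd1* are both YAP/TEAD target genes, yet they moved in opposite directions. *Amotl2* (chromosome 9, 102594152 to 102610616), an angiomotin family gene whose product binds and restrains YAP, had 260.1, 91.1, 126, 13.6 and 25.7 normalized counts in hypHSC 1 to 5 and 1430.0, 1482, 1375, 1405 and 1373 in qHSC 1 to 5. The qHSC libraries were nearly level, with a coefficient of variation of 3.19%, and the hypHSC libraries were all lower and spread widely (96.0%). The log2 fold change was −4.44 (SE 0.66, 95% interval −5.89 to −2.98, limma adjusted p = 2.42e-04, exact permutation p = 0.00794), and its level was 0.365 ± 0.349 FPKM against 6.12 ± 0.364.

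*Ankrd1* (chromosome 19, 36089363 to 36097285), an ankyrin repeat protein known from muscle and wound repair, had 2121, 552, 488, 453 and 429.5 normalized counts in hypHSC 1 to 5 and 8.15, 16.2, 75.6, 5.13 and 47.2 in qHSC 1 to 5. Every hypHSC library was above every qHSC library, and hypHSC 1 stood far above the other 4 hypHSC libraries, which lay close together. The log2 fold change was 4.98 (SE 0.73, 95% interval 3.37 to 6.59, limma adjusted p = 2.14e-04, exact permutation p = 0.00794), and 4.55 to 5.46 when any 1 library was left out. On recovered reads edgeR gave 4.74 (adjusted p = 6.80e-04), and DESeq2 gave 4.74 with no p, so it made no call. Its level of 6.55 ± 6.04 FPKM put it at place 2810 of 12976 genes in hypHSCs, against 0.315 ± 0.325 FPKM and place 10565 in qHSCs. The exons share 24.3% of their bases with an antisense gene, and the reads keep no strand.

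**Figure D3:**
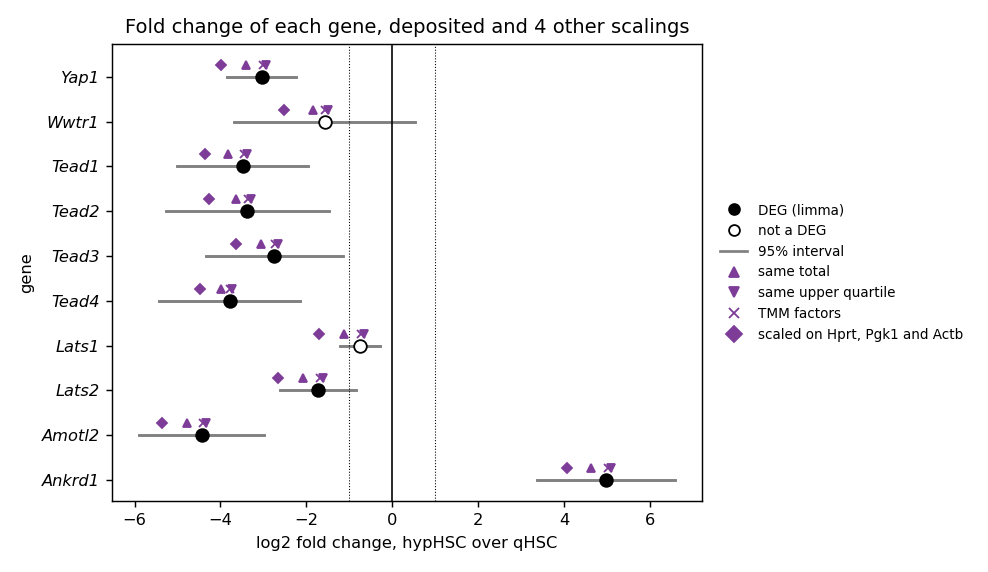
Log2 fold change of hypHSCs over qHSCs for each gene, as a limma estimate (circle, filled for a DEG), its 95% interval (line) and the estimates under 4 other scalings of the libraries (purple). The dotted lines at −1 and 1 mark the fold of the DEG rule, *Ankrd1* is alone on the right at 4.98, and *Wwtr1* is the only gene whose interval includes 0.

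To see whether the opposite moves of *Ankrd1* and *Amotl2* extend to other targets, 22 commonly listed YAP/TEAD target genes were examined, 20 of which were tested. Of these, 5 rose (*Ankrd1*, *Myof*, *Gadd45a*, *Dock5* and *Nuak2*), 10 fell and 5 did not pass the rule, beside 17.8% of all genes tested that rose and 21.7% that fell. The median was −1.31 beside −0.20 over all genes. Leaving out the members, 4 of 17 rose and 8 fell. The target list thus went both ways. Among the best known targets, *Ccn1*, a matricellular protein gene, had 4945, 3354, 2397, 2068 and 809 normalized counts in hypHSC 1 to 5 and 22192, 16132, 15774, 42423 and 43687 in qHSC 1 to 5 (−3.45, SE 0.47, limma adjusted p = 1.32e-04). *Ccn2*, also known as CTGF, had 83.6, 53.8, 29.1, 24.1 and 22.7 against 354, 396, 289, 455 and 477 (−3.34, SE 0.40, limma adjusted p = 5.38e-05). Both were lower in every hypHSC library than in any qHSC library.

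Among targets averaging 100 normalized counts or more, the largest falls were those of *Nt5e*, which encodes the ectonucleotidase CD73 (−9.38, SE 0.42, 5.42 ± 2.61 against 4402 ± 1843 normalized counts, a gene that passed the filter only through qHSCs and had to differ), *Igfbp3*, an IGF-binding protein gene (−5.40, SE 0.69), and *Rbms3*, an RNA-binding protein gene (−4.69, SE 0.39). The largest rises were those of *Myof*, which encodes the membrane repair protein myoferlin (5.49, SE 0.44, 4358 ± 696 against 113 ± 59.8 normalized counts), *Ankrd1*, and *Dock5*, an exchange factor gene (3.95, SE 1.05). *Axl*, a receptor tyrosine kinase gene, had 2962 ± 1199.7 and 2015 ± 664 normalized counts and did not pass the test (0.50, SE 0.35, limma adjusted p = 0.264).

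**Figure D4:**
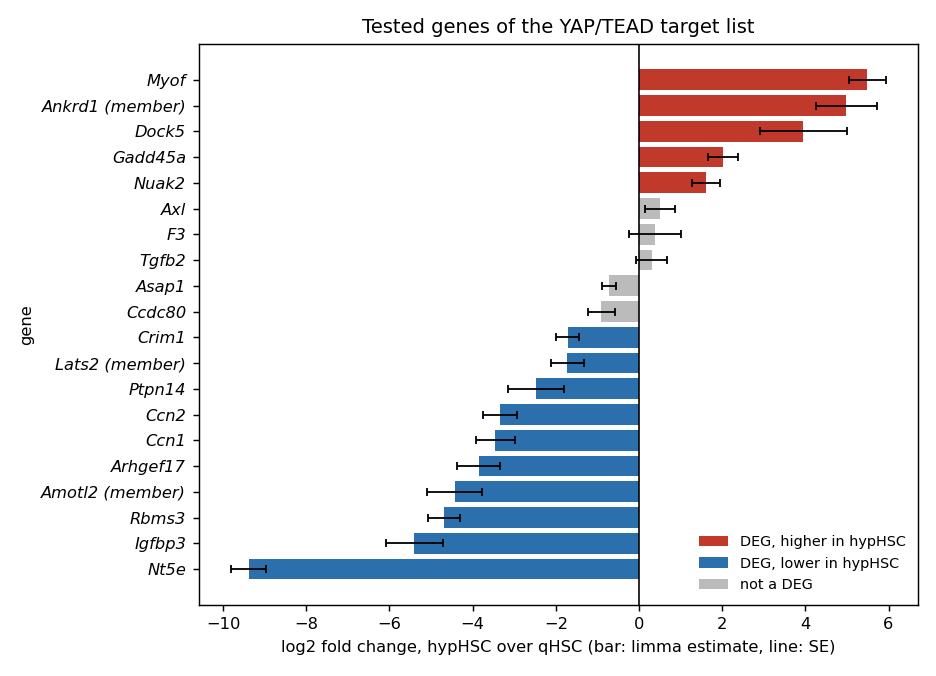
Log2 fold change of hypHSCs over qHSCs for the 20 tested genes of the target list, each bar a limma estimate and each line its SE, red or blue where the gene was a DEG and grey where it was not. The list runs from −9.38 for *Nt5e* to 5.49 for *Myof*, with 5 red and 10 blue bars.

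Other Hippo pathway genes were examined as a list of 52, called upstream here, of which 49 were tested: 6 rose, 15 fell and 28 did not pass, with a median of −0.44. Not all of them act upstream of LATS, the VGLL genes among them, and *Ptpn14* and *Fjx1* are also in the target list. Over all genes tested 39.5% were DEGs, 17.8% higher and 21.7% lower, so the number of calls in this list was near the background. The MST kinase genes moved apart. *Stk3*, which encodes MST2, had 1236, 1146, 1344, 840.3 and 1192 normalized counts in hypHSC 1 to 5 and 2603, 3182, 2667, 2999 and 3164 in qHSC 1 to 5 (−1.36, SE 0.16, limma adjusted p = 5.30e-05). *Stk4*, which encodes MST1, had 1296, 1472, 941, 764 and 1526 against 309, 422, 376, 521 and 339 (1.58, SE 0.24, limma adjusted p = 2.98e-04). Neither pair of groups overlapped. The adaptor genes *Sav1* (−0.37, SE 0.27) and *Mob1b* (0.26, SE 0.22) and the tumour suppressor gene *Nf2* (−0.44, SE 0.65) did not pass, and *Mob1a*, another LATS cofactor, differed by 0.77 (SE 0.17, limma adjusted p = 0.00288) without reaching the fold of the rule.

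*Amotl1*, a paralog of *Amotl2*, fell from 1744 ± 457 to 279 ± 251.8 normalized counts (−3.08, SE 0.54), and *Amot* was low in both groups (−0.46, SE 0.74). Of the VGLL genes, whose products compete with YAP for TEAD, *Vgll3* was higher (88.2 ± 51.6 against 14.7 ± 14.6, 3.48, SE 1.10, limma adjusted p = 0.0216) and *Vgll4* lower (431 ± 234 against 953 ± 231, −1.33, SE 0.42, limma adjusted p = 0.0222), but *Vgll4* was a DEG in only 7 of 10 fits that left out 1 library. It was not one without hypHSC 4 (−1.20, limma adjusted p = 0.0540), hypHSC 5 (−0.97, limma adjusted p = 0.0204) or qHSC 2 (−1.23, limma adjusted p = 0.0549). *Ptpn14*, which encodes a phosphatase that binds YAP, was also lower (−2.48, SE 0.67), and the kinase gene *Map4k4* did not pass (−0.21, SE 0.29).

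Among upstream genes averaging 100 normalized counts or more, the 3 largest falls belonged to *Slmap*, a gene of the STRIPAK complex that restrains MST kinases (952 ± 255 against 24270.0 ± 3390, −4.70, SE 0.20), *Tnik* (−4.53, SE 0.99) and *Tjp1*, which encodes the junction protein ZO-1 (−4.44, SE 1.14). Among the largest rises at that level were those of *Map4k1*, a kinase gene best known from blood cells (482 ± 287 against 16.9 ± 10.3, 4.82, SE 0.58) and *Taok3* (2.38, SE 0.49). With *Hprt*, *Pgk1* and *Actb* as the scaling genes, the split of the upstream list became 4 higher and 27 lower.

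Within the hypHSC group, the 2 libraries at 13 weeks were compared with the 3 at 12 weeks in a fit of 4 groups. Diet weeks and age moved together in it. The 13-week libraries also held more mitochondrial reads, 12.8% and 7.27% against 2.21% to 3.42%. Their reads without a gene symbol were 29.1% and 20.1% against 10.8% to 13.2%. The part of these traits in the comparison was not tested. No member was a DEG by limma, beside 0.00684% of all genes tested. By limma 4 of 10 had an unadjusted p under 0.05 (*Tead3*, *Tead4*, *Lats2*, *Amotl2*), beside 10.4% of all genes. No member was a DEG by edgeR, which called 0 of 14630 genes, or by DESeq2, which called 119 higher and 66 lower. *Amotl2* averaged 176 normalized counts at 13 weeks and 55.0 at 12 weeks (log2 difference 2.08, SE 0.81, limma adjusted p = 0.468), and *Lats2* averaged 138 and 366 (−1.23, SE 0.46, limma adjusted p = 0.468). Without hypHSC 3, *Amotl2* alone of the 10 was a DEG, at 2.97 (limma adjusted p = 0.0139), beside 12.6% of all genes tested in that fit, so 1 of 10 is near the background. Age within the qHSC group gave 0 DEGs among the members by limma, beside 0.00% of all genes tested and 1.35% with an unadjusted p under 0.05. No member was a DEG by edgeR, which called 0 genes, or by DESeq2, which called 6 lower.

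The genes whose levels over the 10 libraries were most like those of *Yap1* by Pearson correlation on the log2 scale were *Golm2* (0.996), *Map2* (0.993) and *Tbcd* (0.992). Those most like *Wwtr1* were *Ubtf* (0.976), *D930003E18Rik* (0.975) and *Tmem53* (0.974), and those most like *Ankrd1* were *Taf1d* (0.974), *Mgp* (0.973) and *Col15a1* (0.964). The points share the group difference and the library scaling, so these values are a description.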

How the data were processed

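Libraries were made by oligo-dT priming and template switching, sequenced at both ends without keeping the strand, mapped to mm39 (GRCm39) with STAR and counted per gene with featureCounts (Subread 1.5.0). The authors deposited a signal for each gene, read counts divided by DESeq2 size factors, called normalized counts here. Undoing this division returned whole reads for 100% of values (within 0.05 read), which were used for depth and FPKM. Named genes that reached 10 normalized counts in 5 or more libraries were compared with limma 3.58.1 (R 4.3.3, intensity trend), and single values with exact two-sided permutation tests over 252 arrangements. edgeR 4.0.16 and DESeq2 1.42.0 on the recovered reads, scalings, filters, pseudocounts, a replicate block and libraries left out were alternatives. The steps were tested on simulated counts, where limma called 44 of 44 genes at a log2 fold change of −2 and 40 of 48 at −1.5. It called 43 of 50 at 1.5, 49 of 50 at 2 and 8 of 13941 unchanged genes. The simulation gave every gene the same dispersion in both groups. The members differed in this, such as *Yap1* with a coefficient of variation of 53.3% against 12.5%, so it cannot speak for genes with such a spread. Members and lists were chosen with earlier results of these data known, the lists from general knowledge. Genes named are the members, preset list genes and the 3 largest rises and falls per list at a mean of at least 100 normalized counts, 1 of which is not reported here. The 95% intervals are those of limma and rest on the spread between libraries, and the floor of 3 reads covers counting error only, since amplified reads are not independent molecules. FPKM used GENCODE exon lengths.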

Additional observations from a re-analysis of the deposited data

Results flagged for a closer look

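Within each group of 5 libraries, a value was marked when 1 library lay far from the other 4 by Dixon's criterion, which chance meets in about 1 in 20 groups. It was met in 6 of 60 groups checked. *Ankrd1* was 2121 normalized counts in hypHSC 1 and 429.5 to 551.8 in the other hypHSC libraries. *Lats2* was 635.2 in hypHSC 5 and 127.3 to 245.5 in the others, and *Amot* was 54.45 in hypHSC 5 and 2.07 to 12.47 in the others. *Tead4* was 61.35 in qHSC 2 and 11.98 to 25.48 in the others, and *Nf2* was 250.5 in qHSC 2 and 64.44 to 112.2 in the others. The *Tead1* share of the TEAD sum per length was 77.77% in hypHSC 5 and 6.17% to 23.31% in the others. Of the 10 genes, hypHSC 1 held the highest hypHSC value for 8, and the summed cholangiocyte markers were also highest there (6999 normalized counts, 797 to 1783 in the other hypHSC libraries), whose part in the result was not tested.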

How the results depend on the processing

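The member calls (8 DEGs) were 8 in each fit without 1 library, and also without hypHSC 1 and hypHSC 5 together, an alternative chosen after seeing the data. A mean of at least 100 normalized counts left 5 members tested and 4 DEGs, by construction. DESeq2 gave 7, with no adjusted p for *Ankrd1*. Fits without 1 library gave 15 to 16 target DEGs, 18 to 22 upstream DEGs, 0 to 1 member DEGs between diet weeks and 0 to 0 between ages. The difference in *Tead1* share reversed to 3.85 points at 12 weeks alone and ran from −14.2 to 3.67 without 1 library. The difference in log2 *Yap1*/*Wwtr1* ran from −2.53 to −1.02, and in log2 *Lats1*/*Lats2* from 0.85 to 1.19. Over all genes, 2602 rose and 3177 fell, against 2022 and 4225 at the same total and 1472 and 6990 with *Hprt*, *Pgk1* and *Actb*. Between diet weeks DESeq2 called 119 higher and 66 lower and limma without hypHSC 3 called 1397 and 451, against 1 and 0, and the cause was not tested. Replicate numbers did not pair the libraries (correlations of 0.008 to 0.129), and only replicate 5 correlated best with its own number. A replicate block gave 8 member, 15 target and 22 upstream DEGs.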
